A study of Mus musculus with 9 samples.

Results

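Genes for plasma proteins that the liver secretes, with 1 liver enzyme, were followed in the colon of mice with chemically induced colitis. The set holds 39 genes, taken by symbol from the deposited expression table, and all 39 were found among its 35315 genes. Hepatocytes are the best known source of these transcripts in the body, and the name of the set refers to that source, not to cells that were seen in the tissue. The genes were chosen by their FPKM in these libraries, which earlier results had shown to be higher in GsMTx4 colon for many of them. Their levels and fold changes with GsMTx4 are therefore given as a description, with no p. GsMTx4 mice drank 2.5% dextran sulfate sodium (DSS), which damages the lining of the colon, for 7 days and received GsMTx4 at 10 mg/kg intravenously on days 2, 4 and 6. The peptide GsMTx4, from spider venom, blocks mechanosensitive channels, of which Piezo1 is the best known. DSS mice drank DSS on the same schedule and received solvent on those days. Control mice drank normal water, with no injection listed, so DSS and injection cannot be told apart in the comparison of DSS with Control. All mice were WT C57BL/6J animals aged 8 weeks, and each group has 3 libraries. The labels do not say whether a library is 1 mouse or a pool, so p-values measure only the spread between these samples, which may be technical.

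Hepatocytes make most of the proteins of blood plasma, among them albumin and other carriers, apolipoproteins, clotting factors and protease inhibitors. Nuclear factors enriched in liver, HNF1 and HNF4 among them, are known to drive many of these genes, and some of the same factors are active in gut epithelium. Part of the set, the acute phase genes, is induced in hepatocytes by cytokines such as interleukin-6 during inflammation. Expression was measured by RNA sequencing of total RNA from colon and deposited as FPKM, fragments scaled to transcript length and to mapped fragments. The FPKM of a library summed to between 349125 and 440935, with 12830 to 14036 genes at 1 FPKM or more. No file gives the number of reads, so depth is unknown. Markers of colonocytes, the absorptive cells of the colon surface, summed to 2691 to 3141 FPKM in GsMTx4 libraries, 3330 to 4545 FPKM in DSS libraries and 2717 to 3306 FPKM in Control libraries. Wherever libraries are listed below, the 3 values of a group are given in the order of the replicate numbers 1, 2 and 3.

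Promoter letters, which the choice of members did not use, were searched for motifs. A RefSeq promoter window (GRCm38.p6, 250 bases before to 50 after the start) was matched for 29 of the 39 members, 31 windows in all, while Apoc1, Apoc3, Hp, Serpina3k, Ttr, Trf, Orm1, Plg, Kng1 and Mup20 have none here. GTTAAT, an arm of the palindrome that HNF1 binds, stood on either strand in 12 of the 31 member windows (38.7%) and in 2332 of all 32851 windows (7.10%). The 12 hits are not independent, since 5 of them lie in the near-identical copies Serpina1a to Serpina1e. CCAAT was found in 51.6% of member windows and 37.4% of all windows, and TATAAA in 16.1% and 13.6%. The liver motifs CAAAGTCCA and TTGCGCAA were found in none of the 31 member windows, and in 0.475% and 0.183% of all windows. These are matches of letters and not binding sites. The members are liver genes, many of them known to be driven by HNF1, so the GTTAAT share says nothing of the colon libraries. The stretches that hold GTTAAT are given with that motif in capitals, 24 bases each, read on the strand that carries those letters, because they are what these 12 windows have in common, and the other 19 member windows lack the motif. They lie at chr5:90460832-90460855 (Alb), chr5:89457933-89457956 (Gc), chr3:83026098-83026121 (Fga), chr3:83049881-83049904 (Fgb), chr2:91636438-91636461 (F2), chr11:78498996-78499019 (Vtn), chr14:30943305-30943328 (Itih1) and chr12:103863623-103863646 (Serpina1a). The stretch of Serpina1a is the same in Serpina1b, Serpina1c, Serpina1d and Serpina1e. The motif runs in the direction of the gene in Alb, Gc and the Serpina1 copies and against it in Fga, Fgb, F2, Vtn and Itih1.
Alb: agtatgGTTAATgatctacagtta
Gc: gacaaaGTTAATgattaaaacctc
Fga: caggagGTTAATcatcacccttgg
Fgb: cctttaGTTAATatttgacatttt
F2: ctctggGTTAATattgaaccgatg
Vtn: agtcccGTTAATctccctgagcct
Itih1: ctgttaGTTAATactgtgctggac
Serpina1a: acattgGTTAATattcactagcaa

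The upstream sequence of Alb is shown whole, because Alb had the highest GsMTx4 level among the members that stood at or near 0 in the DSS libraries. The 250 bases before its RefSeq start lie at chr5:90460620-90460869 on the plus strand (GRCm38.p6). The GTTAAT is in capitals, its first base 32 bases before that start. GENCODE M21 places the start of the gene further on, at chr5:90460897, so this distance depends on the annotation.
Alb upstream: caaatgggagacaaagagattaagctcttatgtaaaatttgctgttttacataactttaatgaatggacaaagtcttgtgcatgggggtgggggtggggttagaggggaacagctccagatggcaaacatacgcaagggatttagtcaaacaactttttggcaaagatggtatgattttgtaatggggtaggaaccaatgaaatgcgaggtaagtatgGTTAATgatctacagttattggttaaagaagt

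Some members are near-identical copies, which bears on how far their values can be read gene by gene. The 5 Serpina1 genes, which encode alpha-1 antitrypsins, share 96.3% to 98.5% of their coding bases over 10 pairs (GENCODE M21 transcripts). The 4 Mup genes share 82.3% to 98.7% over 6 pairs, with Mup7 and Mup17 the closest pair at 98.7%. Hamp shares 93.6% with Hamp2, a gene outside the set. The 3 fibrinogen chains, by contrast, share 46.7% to 49.5%. The counting method is not given in the sources used here, so single values of Serpina1, Mup and Hamp genes are uncertain and the sums over a family are given beside them. The stretch of the Serpina1 coding sequence from base 1102 to base 1161 of 1239 is shown for the 5 copies (chromosome 12), with capitals at the 18 positions where they differ, since 86 positions differ over the whole coding sequence and this is where they are densest.
Serpina1a coding: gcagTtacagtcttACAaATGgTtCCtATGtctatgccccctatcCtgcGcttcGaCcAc
Serpina1b coding: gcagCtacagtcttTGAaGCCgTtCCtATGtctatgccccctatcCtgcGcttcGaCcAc
Serpina1c coding: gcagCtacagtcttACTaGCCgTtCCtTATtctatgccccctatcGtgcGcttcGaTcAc
Serpina1d coding: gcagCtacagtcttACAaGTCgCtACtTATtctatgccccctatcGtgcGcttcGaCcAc
Serpina1e coding: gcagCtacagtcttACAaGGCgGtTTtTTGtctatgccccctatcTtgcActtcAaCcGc

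Most of the 39 genes were low but present in every GsMTx4 library and at or near 0 elsewhere. In 31 of them each GsMTx4 library lay above all 6 other libraries, which 1.27% of all genes in the table did (1.36% of genes above 0 in any library and 1.68% of tested genes). The 31 include 5 of 5 apolipoproteins, 7 of 8 clotting genes, 9 of 11 protease inhibitors, 5 of 9 carriers, 3 of 4 Mup genes, and both the hormone gene Hamp and the enzyme gene Gnmt. Their FPKM summed to 85.1, 99.9 and 101.1 in GsMTx4 libraries, to 6.88, 8.46 and 6.36 in DSS libraries and to 5.13, 3.66 and 3.59 in Control libraries. The remaining 8 members are Hp, Ttr, Trf, Rbp4, Itih2, Itih3, Serpinc1 and Mup17. A mean of at least 1 FPKM was reached by 31 members in GsMTx4, 6 in DSS and 4 in Control. At the other end, 4 members were listed at 0 in all 6 DSS and Control libraries and 15 in all 3 Control libraries. All 39 together made up 0.0352%, 0.0426% and 0.0374% of the FPKM sum in GsMTx4 libraries. The share was 0.00966%, 0.0123% and 0.0219% in DSS libraries and 0.0163%, 0.0134% and 0.0142% in Control libraries. In bulk tissue, fewer cells of a type and less RNA per cell cannot be told apart.

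**Figure D1:**
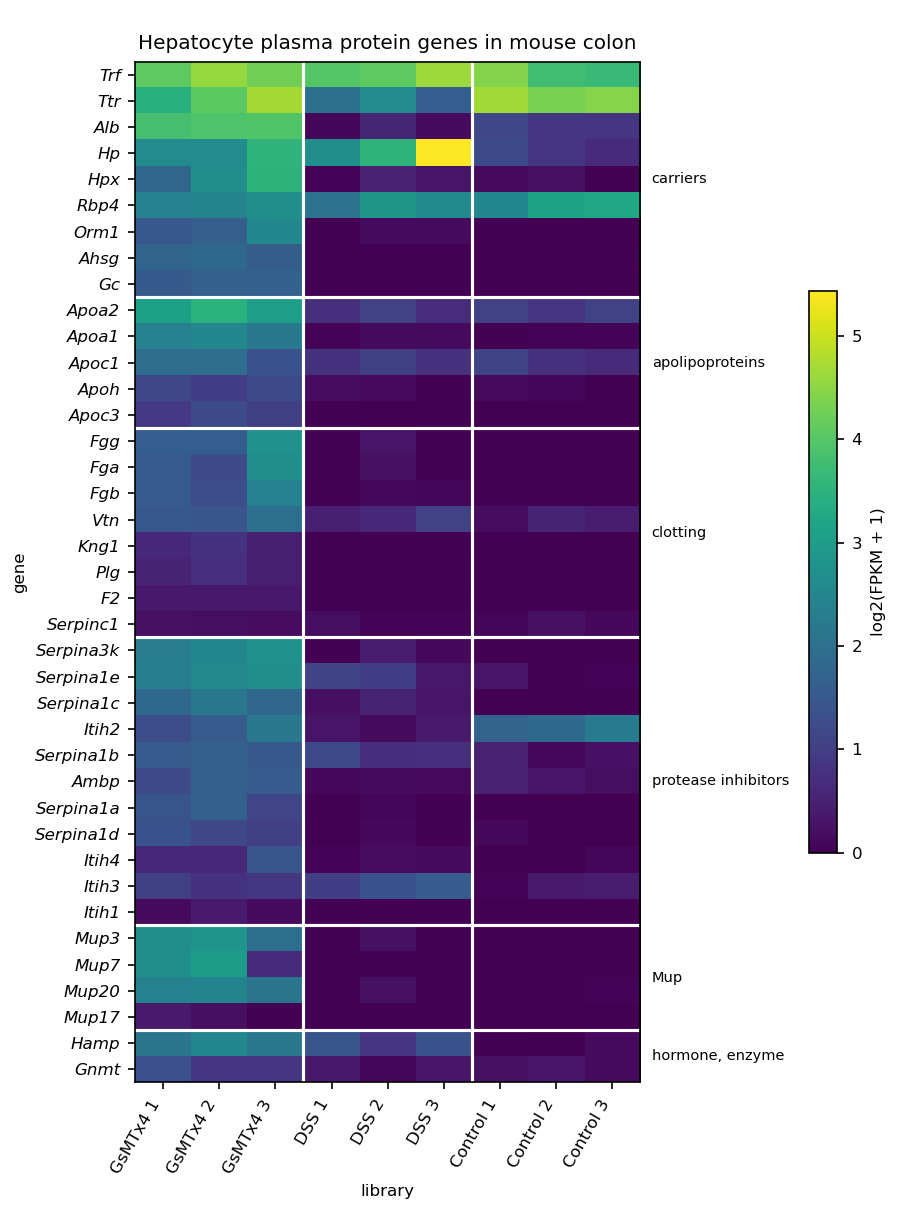
Expression of the 39 genes in each of the 9 libraries as log2(FPKM + 1), from dark (0) to bright, with genes in rows by role and libraries in columns as GsMTx4, DSS and Control. Most rows are lighter in the 3 GsMTx4 columns than in the other 6, while Trf and Rbp4 are alike throughout, Ttr is dark in DSS alone and Hp is brightest in DSS 3 at 42.2 FPKM.

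Of the 39 members, 28 had at least 1 FPKM in at least 3 of the 9 libraries and were tested, and 15 of those reached that level in the GsMTx4 libraries alone. Members that passed only through the group where they are high had to differ. The other 11 were not tested: Apoc3, Apoh, Serpinc1, Itih1, Itih4, Plg, F2, Kng1, Mup7, Mup17 and Gnmt. Against DSS, 24 of 28 tested members were higher in GsMTx4 at an adjusted p under 0.05 (limma on log2(FPKM + 1)) and 0 lower, where 6.66% of all tested genes were higher and 5.62% lower. Their median log2 fold change was 1.66, and that of all 14360 tested genes 0.07. Against Control, 19 of 28 were higher in GsMTx4 and 0 lower, where 0.188% of tested genes were higher and 0.0487% lower, and the medians were 1.80 for members and -0.08 for all genes. Only 27 genes in all were called higher in GsMTx4 than in Control, and these 19 are among them. That total was 12 without Control 3, 13 without Control 2, 17 without GsMTx4 1 or DSS 2 and 70 without GsMTx4 3. The groups did not overlap for 33 members against DSS, all higher in GsMTx4 (9.16% of all genes were higher and 8.35% lower), and for 33 against Control, also all higher (3.57% higher and 8.85% lower). At an unadjusted p under 0.05 (limma), 24 members were higher and 0 lower in each of the 2 comparisons, where 17.2% of all tested genes were higher and 13% lower against DSS, and 2.79% higher and 7.35% lower against Control. These counts describe the choice of members and nothing is read from them. Both comparisons also share the GsMTx4 libraries. The count against Control was 11 without Control 1, without Control 2 or without Control 3. With a pseudocount of 0.01 in place of 1 the counts were 10 against DSS and 1 against Control.

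Among the carriers, Alb, Ahsg, Gc, Hpx and Orm1 were high in GsMTx4 libraries. Alb (chr5:90460897-90476602), which encodes serum albumin, the most abundant plasma protein, stood at 13.2, 14.4 and 14.6 FPKM in GsMTx4 libraries. It was at 0.0719, 0.479 and 0.111 FPKM in DSS libraries and at 1.22, 0.825 and 0.753 FPKM in Control libraries. The 3 groups did not overlap, with DSS lowest. The log2 fold change of Alb on the log2(FPKM + 1) scale, which understates the change of low genes, was 3.64 ± 0.16 (SE, n = 3 libraries per group) against DSS and 2.97 ± 0.16 against Control. Gc, the vitamin D binding protein, stood at 1.91, 2.24 and 2.23 FPKM in GsMTx4 libraries and was listed at 0 in all 6 others. Ahsg, or fetuin-A, an inhibitor of mineral deposition, stood at 2.37, 2.55 and 2.02 FPKM in GsMTx4 libraries and was listed at 0 in all DSS libraries and in Control 1 and 2, with 0.0221 FPKM in Control 3. Both genes kept a narrow range in the GsMTx4 group. Hpx, the heme carrier hemopexin, stood at 2.48, 5.42 and 10.4 FPKM in GsMTx4 libraries, at 0.0308, 0.403 and 0.23 FPKM in DSS libraries and at 0.0966, 0.181 and 0.0197 FPKM in Control libraries. Orm1, the acute phase protein orosomucoid, stood at 1.79, 2.10 and 4.82 FPKM in GsMTx4 libraries, at 0, 0.12 and 0.113 FPKM in DSS libraries and at 0 in Control libraries. GsMTx4 3 was the highest library for Hpx and Orm1, and in both genes the lowest GsMTx4 library was above every DSS and Control library. Against DSS, the log2 fold change was 2.39 ± 0.36 for Hpx and 1.78 ± 0.25 for Orm1.

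All 5 apolipoprotein genes, which encode the protein part of plasma lipoproteins, were highest in GsMTx4 libraries. Apoa1 (chr9:46228580-46230466), the main protein of high density lipoprotein, stood at 4.15, 4.68 and 3.57 FPKM in GsMTx4 libraries, at 0.0387, 0.111 and 0.122 FPKM in DSS libraries and at 0, 0.0391 and 0.0392 FPKM in Control libraries. Apoa2, another high density lipoprotein component, stood at 7.55, 10.1 and 7.23 FPKM in GsMTx4 libraries, at 0.668, 1.09 and 0.616 FPKM in DSS libraries and at 1.06, 0.759 and 1.11 FPKM in Control libraries. The DSS and Control libraries overlapped in both genes. Apoc1 stood at 2.81, 2.85 and 1.58 FPKM in GsMTx4 libraries, at 0.745, 1.05 and 0.704 FPKM in DSS libraries and at 1.17, 0.712 and 0.579 FPKM in Control libraries. It had the smallest gap of the 5, with GsMTx4 3 not far above Control 1, and it was not called against Control (0.90 ± 0.20 log2). Apoc3, an inhibitor of lipoprotein lipase that neighbours Apoa1 on chromosome 9, stood at 0.86, 1.39 and 1.03 FPKM in GsMTx4 libraries and was listed at 0 in all 6 others. Apoh, beta-2 glycoprotein I, stood at 1.25, 0.978 and 1.40 FPKM in GsMTx4 libraries, at 0.138, 0.106 and 0 FPKM in DSS libraries and at 0.096, 0.0663 and 0 FPKM in Control libraries. Neither of the last genes passed the filter on low values. Against DSS, the log2 fold change was 2.23 ± 0.14 for Apoa1 and 2.37 ± 0.17 for Apoa2, and against Control it was 2.32 ± 0.14 and 2.23 ± 0.17.

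Hamp (chr7:30942368-30944032), the gene of hepcidin, the hormone that closes the iron exporter ferroportin, was graded over the groups. It stood at 3.27, 4.75 and 3.54 FPKM in GsMTx4 libraries, at 1.66, 0.824 and 1.57 FPKM in DSS libraries and at 0, 0.0247 and 0.118 FPKM in Control libraries. No 2 groups overlapped. Its log2 fold change was 1.05 ± 0.19 in GsMTx4 against DSS and 2.20 ± 0.19 in GsMTx4 against Control. Gnmt, the glycine N-methyltransferase of liver cytosol and the only member whose protein is not secreted, stood at 1.5, 0.801 and 0.809 FPKM in GsMTx4 libraries, at 0.287, 0.0646 and 0.252 FPKM in DSS libraries and at 0.193, 0.25 and 0.121 FPKM in Control libraries. Here the GsMTx4 libraries lay above the other 6, which overlapped each other.

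**Figure D2:**
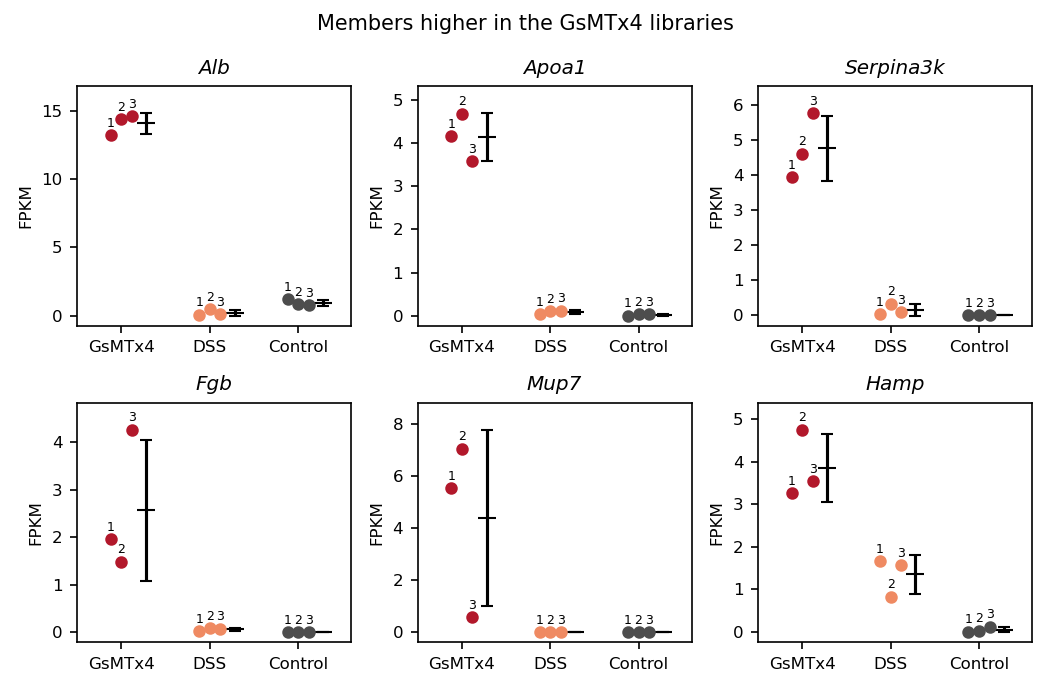
FPKM of Alb, Apoa1, Serpina3k, Fgb, Mup7 and Hamp in GsMTx4, DSS and Control libraries, with 1 numbered point per library and a bar for mean ± SD (n = 3). The GsMTx4 points lie above all others in each panel, Alb between 13.2 and 14.6 FPKM, while Fgb is highest and Mup7 lowest in GsMTx4 3 and Hamp has DSS points between the other groups.

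The clotting genes rank below albumin, and 7 of 8 had every GsMTx4 library above the rest. The 3 fibrinogen chains lie together on chromosome 3 in the order Fgg, Fga and Fgb, between 83007724 and 83049863. Fga, the alpha chain, stood at 1.97, 1.41 and 5.5 FPKM in GsMTx4 libraries, at 0, 0.183 and 0 FPKM in DSS libraries and at 0 in Control libraries. Fgb, the beta chain, stood at 1.96, 1.48 and 4.26 FPKM in GsMTx4 libraries, at 0.0236, 0.0851 and 0.0759 FPKM in DSS libraries and at 0 in Control libraries. Fgg, the gamma chain, stood at 2.10, 2.08 and 5.89 FPKM in GsMTx4 libraries, at 0, 0.229 and 0 FPKM in DSS libraries and at 0 in Control libraries. All 3 chains were highest in GsMTx4 3 and within 1.5 times of each other in every GsMTx4 library. Their sum was 6.03, 4.97 and 15.6 FPKM in GsMTx4 libraries, 0.0236, 0.497 and 0.0759 FPKM in DSS libraries and 0 in Control libraries. Against DSS, the log2 fold change was 1.77 ± 0.32 for Fga, 1.67 ± 0.25 for Fgb and 1.91 ± 0.29 for Fgg. Vtn, vitronectin, an adhesion protein of plasma and matrix, stood at 1.83, 1.68 and 2.87 FPKM in GsMTx4 libraries, at 0.393, 0.524 and 1.06 FPKM in DSS libraries and at 0.137, 0.443 and 0.34 FPKM in Control libraries. Plg, F2 and Kng1, the genes of plasminogen, prothrombin and kininogen, were between 0.277 and 0.749 FPKM in GsMTx4 libraries, at most 0.0157 FPKM in DSS libraries and at most 0.0239 FPKM in Control libraries. Serpinc1, or antithrombin, was the exception, at 0.184, 0.147 and 0.137 FPKM in GsMTx4 libraries, 0.158, 0.0343 and 0.0373 FPKM in DSS libraries and 0.0599, 0.179 and 0.0824 FPKM in Control libraries. Its 3 groups overlapped.

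Among the protease inhibitors, Serpina3k and the 5 alpha-1 antitrypsin genes showed the pattern with differing clarity. Serpina3k (chr12:104338486-104346144), a serine protease inhibitor of rodent plasma, stood at 3.94, 4.62 and 5.78 FPKM in GsMTx4 libraries, at 0.0292, 0.337 and 0.0848 FPKM in DSS libraries and at 0 in Control libraries. Of the tested members it lay closest to the mean profile of the tested members, itself included, over the 9 libraries, with Pearson's r = 0.998. The antitrypsin genes Serpina1a to Serpina1e lie on chromosome 12 between 103728156 and 103958975 and encode serine protease inhibitors, whose targets in mouse differ among the copies. They summed to 11.7, 14.0 and 12.1 FPKM in GsMTx4 libraries, to 2.66, 2.20 and 1.18 FPKM in DSS libraries and to 0.758, 0.0773 and 0.245 FPKM in Control libraries. The sums of the 3 groups did not overlap. Serpina1e stood at 3.98, 4.88 and 5.46 FPKM in GsMTx4 libraries, at 1.17, 0.974 and 0.268 FPKM in DSS libraries and at 0.249, 0 and 0.0449 FPKM in Control libraries. Serpina1b stood at 1.96, 2.17 and 1.88 FPKM in GsMTx4 libraries, at 1.31, 0.639 and 0.669 FPKM in DSS libraries and at 0.42, 0.0773 and 0.20 FPKM in Control libraries. These 2 copies had the highest DSS values of the 5. Serpina1c stood at 2.50, 3.52 and 2.49 FPKM in GsMTx4 libraries, at 0.159, 0.438 and 0.246 FPKM in DSS libraries and at 0 in Control libraries. Serpina1a stood at 1.66, 2.24 and 1.19 FPKM in GsMTx4 libraries, at 0.0171, 0.0606 and 0 FPKM in DSS libraries and at 0 in Control libraries. Serpina1d stood at 1.58, 1.22 and 1.05 FPKM in GsMTx4 libraries, at 0, 0.0897 and 0 FPKM in DSS libraries and at 0.089, 0 and 0 FPKM in Control libraries. The last 2 copies were thus near 0 outside the GsMTx4 group.

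The remaining inhibitors are Ambp and the heavy chain genes Itih1, Itih2, Itih3 and Itih4. Ambp, which encodes bikunin together with alpha-1 microglobulin, stood at 1.37, 2.24 and 1.94 FPKM in GsMTx4 libraries, at 0.0851, 0.116 and 0.101 FPKM in DSS libraries and at 0.407, 0.257 and 0.15 FPKM in Control libraries. Its 3 groups did not overlap, and DSS was lowest. The heavy chain genes Itih1, Itih3 and Itih4 are neighbours on chromosome 14, between 30886476 and 30943289. Itih1 was between 0.115 and 0.306 FPKM in GsMTx4 libraries, at most 0.0146 FPKM in DSS libraries and at 0 in Control libraries. Itih4 stood at 0.554, 0.54 and 1.65 FPKM in GsMTx4 libraries, at 0.0383, 0.131 and 0.117 FPKM in DSS libraries and at 0, 0 and 0.0525 FPKM in Control libraries. Both had the GsMTx4 libraries above the other 6, which Itih3, their neighbour, and Itih2 on chromosome 2 did not.

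The Mup genes encode major urinary proteins, pheromone carriers that the mouse liver secretes for excretion in urine, and they lie on chromosome 4. Mup3 stood at 5.38, 5.99 and 2.88 FPKM in GsMTx4 libraries, at 0, 0.193 and 0 FPKM in DSS libraries and at 0 in Control libraries. Mup20, the gene of the male pheromone darcin, stood at 4.19, 4.50 and 3.25 FPKM in GsMTx4 libraries, at 0, 0.192 and 0 FPKM in DSS libraries and at 0, 0 and 0.0376 FPKM in Control libraries. DSS 2 was the only DSS library with a value above 0 in either gene. Mup7 stood at 5.55, 7.06 and 0.571 FPKM in GsMTx4 libraries and was listed at 0 in all 6 others. Mup17, its closest copy, was at 0.307, 0.164 and 0 FPKM in GsMTx4 libraries and also listed at 0 in all 6 others. The sum of the 4 genes was 15.4, 17.7 and 6.70 FPKM in GsMTx4 libraries, 0, 0.385 and 0 FPKM in DSS libraries and 0, 0 and 0.0376 FPKM in Control libraries. Against DSS, the log2 fold change was 2.39 ± 0.22 for Mup3 and 2.22 ± 0.15 for Mup20. GsMTx4 3 was the lowest of its group for all 4 Mup genes.

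A smaller set of members was expressed in DSS or Control colon as well. Ttr, or transthyretin, the carrier of thyroid hormone and of retinol binding protein, is also made by endocrine cells. It stood at 9.70, 15.8 and 24.9 FPKM in GsMTx4 libraries, at 3.04, 5.19 and 2.08 FPKM in DSS libraries and at 24.5, 19.1 and 20.9 FPKM in Control libraries. GsMTx4 and Control overlapped, and DSS lay below both. Itih2 stood at 1.43, 1.93 and 3.55 FPKM in GsMTx4 libraries, at 0.242, 0.123 and 0.316 FPKM in DSS libraries and at 2.33, 2.61 and 3.70 FPKM in Control libraries, with the same order. The log2 fold change of GsMTx4 against DSS was 1.98 ± 0.33 for Ttr and 1.38 ± 0.24 for Itih2, and against Control it was -0.42 ± 0.33 and -0.27 ± 0.24. Hp, or haptoglobin, the acute phase carrier of free hemoglobin, stood at 5.18, 5.12 and 10.6 FPKM in GsMTx4 libraries, at 5.5, 10.6 and 42.2 FPKM in DSS libraries and at 1.33, 0.749 and 0.583 FPKM in Control libraries. GsMTx4 and DSS overlapped, both lay above Control, and DSS 3 was far above every other library. Itih3 stood at 1.03, 0.747 and 0.838 FPKM in GsMTx4 libraries, at 1.02, 1.60 and 1.98 FPKM in DSS libraries and at 0.0351, 0.311 and 0.36 FPKM in Control libraries. It too overlapped between GsMTx4 and DSS and was lowest in Control. Trf, transferrin, the iron carrier, stood at 15.9, 22.9 and 18.3 FPKM in GsMTx4 libraries, at 15.1, 16.0 and 23.8 FPKM in DSS libraries and at 20.5, 12.6 and 11.7 FPKM in Control libraries. Rbp4, the retinol carrier of plasma, stood at 4.17, 4.43 and 5.43 FPKM in GsMTx4 libraries, at 3.20, 6.37 and 4.94 FPKM in DSS libraries and at 4.71, 7.86 and 8.62 FPKM in Control libraries. For Trf and Rbp4 every pair of groups overlapped.

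**Figure D3:**
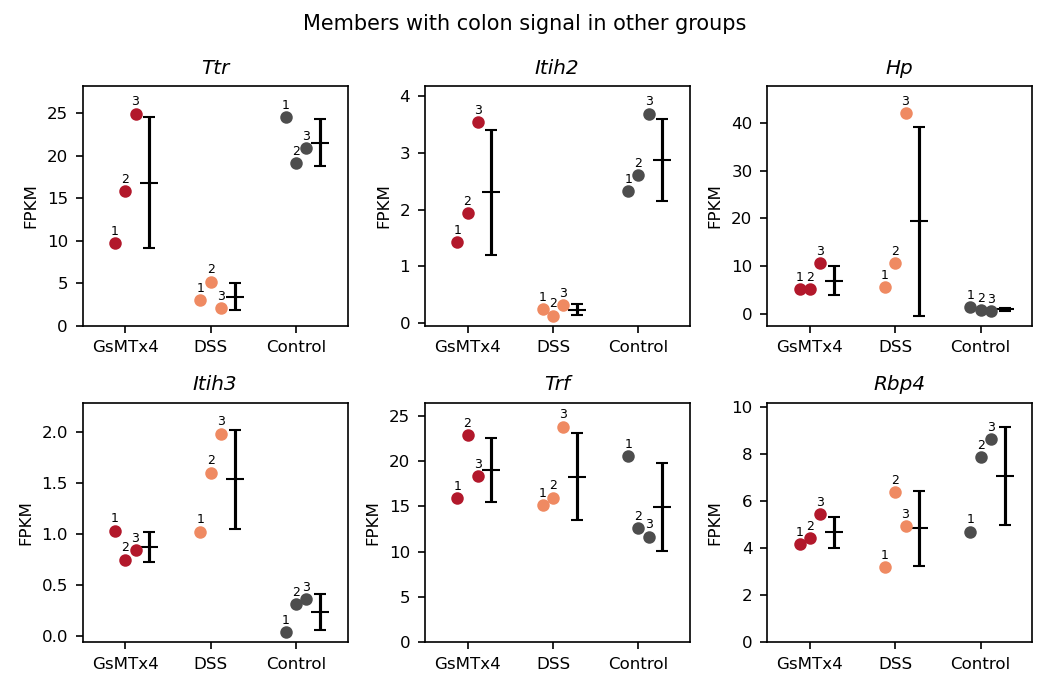
FPKM of Ttr, Itih2, Hp, Itih3, Trf and Rbp4 in GsMTx4, DSS and Control libraries, with 1 numbered point per library and a bar for mean ± SD (n = 3). Ttr and Itih2 are low in DSS alone, Hp and Itih3 are low in Control alone, and Trf and Rbp4 overlap in all groups.

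The comparison of DSS with Control covers colitis with solvent injection, and adjusted p are given for members. The choice of members drew on these same DSS and Control libraries, so it was not independent of this comparison. Of 28 tested members, 3 were higher and 3 lower in DSS (adjusted p under 0.05, limma), that is 10.7% of members in each direction, where 6.41% of all tested genes were higher and 10.7% lower. Of the 28, 15 were tested through their GsMTx4 levels alone and lay below 1 FPKM in every DSS and Control library, and all 6 calls are among the other 13. The median log2 fold change was 0.09 for members and -0.17 for all 14360 tested genes. Hp rose, with 19.4 ± 19.9 FPKM in DSS and 0.888 ± 0.393 FPKM in Control (SD, n = 3 each), a log2 fold change of 2.99 ± 0.59 (adjusted p = 0.0109). Hamp rose by 1.15 ± 0.19 (adjusted p = 0.00545) and Itih3 by 1.03 ± 0.19 (adjusted p = 0.00819). Ttr fell by 2.40 on the log2 scale (SE 0.33, adjusted p = 0.00281), with 3.43 ± 1.59 FPKM in DSS and 21.5 ± 2.75 FPKM in Control. Itih2 fell by 1.65 (SE 0.24, adjusted p = 0.00322). Alb fell by 0.67 (SE 0.16, adjusted p = 0.0251), with 0.221 ± 0.225 FPKM in DSS and 0.933 ± 0.252 FPKM in Control. That call was lost without DSS 1 (adjusted p = 0.0685), DSS 3 (0.0658), Control 1 (0.0891), Control 2 (0.0710) or Control 3 (0.0563), and with the filter removed (0.0621), a filter at a mean of 5 FPKM (0.105) or quantile normalization (0.102). Serpina1b at 0.59 ± 0.18 (adjusted p = 0.0515) and Serpina1e at 0.69 ± 0.22 (adjusted p = 0.0599) did not pass, though Serpina1e did without DSS 3 (adjusted p = 0.0168) and both did at pseudocounts of 0.1 and 0.01 and after quantile normalization. Trf at 0.29 ± 0.25 (adjusted p = 0.419) and Rbp4 at -0.47 ± 0.25 (adjusted p = 0.213) did not pass either. Over all 39 members the groups did not overlap for 12, with 8 higher and 4 lower in DSS, where 8.28% of all genes were higher and 17.2% lower. The 8 are Hp, Hamp, Itih3, Fgb, Serpina3k, Serpina1b, Serpina1c and Serpina1e, and the 4 are Ttr, Itih2, Alb and Ambp. The split of all genes followed the scaling, with 921 higher and 1541 lower as deposited, 1380 and 952 after median-of-ratios scaling, 1335 and 1328 after quantile normalization and 637 and 1682 after rescaling to TPM. The same scalings moved the median of all genes by 0.15, 0.11 and -0.11 on the log2 scale.

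Within the GsMTx4 group, the 31 members that stood above all other libraries comprised genes that were level over the 3 libraries and genes that were not. The highest library was GsMTx4 2 for 17 of the 31, GsMTx4 3 for 11 and GsMTx4 1 for 3, and for 21 of them the highest value was within 2 times the lowest. Alb varied little, with a coefficient of variation of 5.38%, and Gc kept the steadiest ratio to Alb, at 14.4%, 15.6% and 15.2% of its FPKM. For 7 members GsMTx4 3 exceeded 1.5 times the mean of GsMTx4 1 and GsMTx4 2, by 3.26 times for Fga, 3.02 for Itih4, 2.82 for Fgg, 2.63 for Hpx, 2.48 for both Fgb and Orm1 and 1.64 for Vtn. Fibrinogen, hemopexin, orosomucoid and Itih4 are acute phase proteins in rodents. Acute phase genes outside the set went both ways in GsMTx4 3. Lrg1 stood at 66.1, 33.1 and 4.32 FPKM in GsMTx4 libraries and Serpina3n at 57.6, 21.5 and 19.6 FPKM. Both were lowest in GsMTx4 3, as were Lbp, Cp and Saa4. Saa1 was highest there, at 908, 667 and 954 FPKM, as were Saa2, Apcs, Crp, Fgl1, Orm2, Serpina3g and Hamp2. These genes differ in their DSS level. The mean FPKM in DSS was 229 for Lrg1, 206 for Serpina3n, 19.2 for Lbp, 4.55 for Cp and 0.185 for Saa4. Of the genes highest in GsMTx4 3, it was 779 for Saa1, 27 for Serpina3g, 0.832 for Saa2, 0.487 for Hamp2 and 0.101 for Orm2. For Crp, Fgl1 and Apcs it was at most 0.00822. What part colon expression has in this was not tested. For 6 members the value in GsMTx4 3 was below the mean of the others by the same factor or more, with ratios of 0.0906 for Mup7, 0.507 for Mup3, 0.560 for Apoc1, 0.570 for Itih1, 0.584 for Kng1 and 0.613 for Serpina1a. As a description over the 39 genes of single libraries, which are not independent, log2(FPKM + 1) correlated at r = 0.972 between GsMTx4 1 and GsMTx4 2, at 0.822 between GsMTx4 1 and GsMTx4 3 and at 0.826 between GsMTx4 2 and GsMTx4 3. GsMTx4 3 also had the highest FPKM sum of all libraries, 440935, and the part of that in these ratios was not tested.

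**Figure D4:**
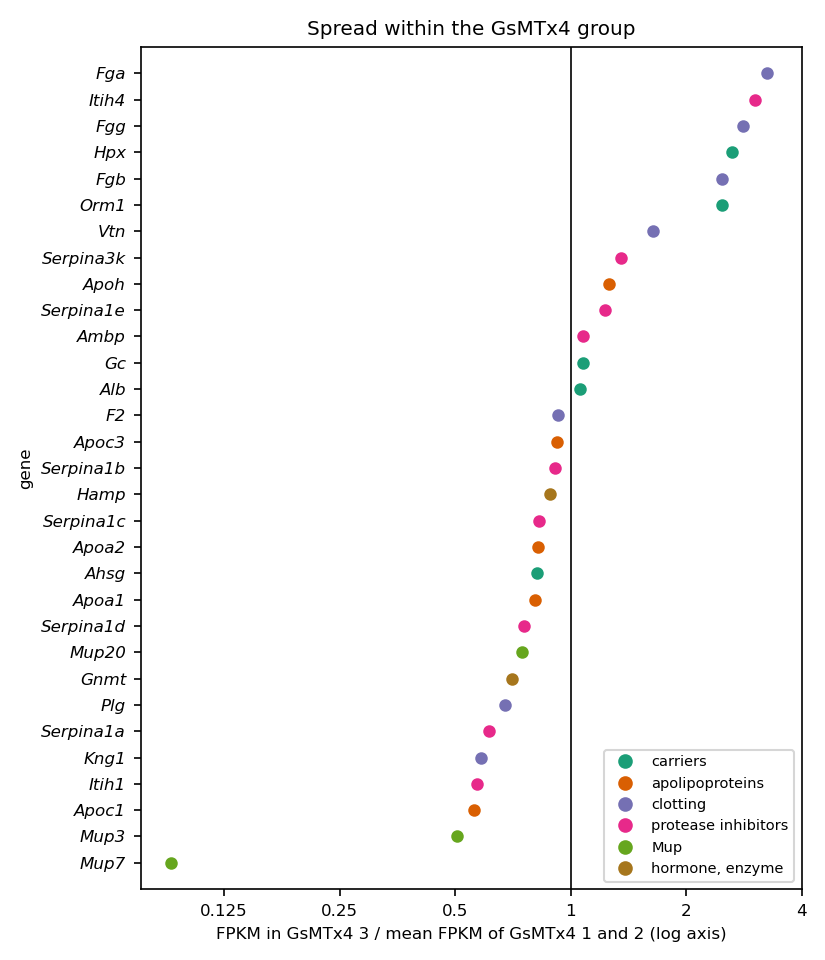
FPKM in GsMTx4 3 divided by the mean FPKM of GsMTx4 1 and GsMTx4 2, on a log axis, for the 31 genes whose GsMTx4 libraries all lie above the other 6, coloured by role. Fga is highest at 3.26 and Mup7 lowest at 0.0906, with Alb at 1.06 near the line of equal values.

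Other hepatocyte genes were listed by function with results of these data already known, without the members, and 141 of them are in the table: enzymes, surface proteins, transcription factors, further plasma proteins and acute phase genes. In 38 of the 141 each GsMTx4 library lay above all 6 others, and only Hamp2 of these passed the filter on low values. By list this held for 15 of 42 enzymes, 2 of 12 surface proteins, 0 of 11 transcription factors, 18 of 58 further plasma proteins and 3 of 18 acute phase genes. The enzymes include Cyp2e1, a cytochrome P450 that oxidises ethanol, at 2.73, 1.61 and 0.841 FPKM in GsMTx4 libraries, 0, 0.0655 and 0.235 FPKM in DSS libraries and 0, 0.201 and 0.684 FPKM in Control libraries. Mat1a, the liver's S-adenosylmethionine synthetase, was at 0.533, 0.739 and 1.19 FPKM in GsMTx4 libraries, at most 0.0161 FPKM in DSS libraries and at most 0.0559 FPKM in Control libraries. Cyp3a11, another cytochrome P450, was at 0.280, 0.286 and 0.388 FPKM in GsMTx4 libraries and listed at 0 in all 6 others. The receptor subunit Asgr1, which clears desialylated glycoproteins from blood, was at 0.141, 0.324 and 0.287 FPKM in GsMTx4 libraries, at most 0.0293 FPKM in DSS libraries and at most 0.0197 FPKM in Control libraries. Its partner subunit Asgr2 lacked this pattern, at 0, 0.0935 and 0.358 FPKM in GsMTx4 libraries. Asgr2 was at 0.372, 0.383 and 0.427 FPKM in DSS libraries and at 0.0492, 0.151 and 0.0905 FPKM in Control libraries. Not every hepatocyte gene was seen: Cyp7a1, the rate-limiting enzyme of bile acid synthesis, was at 0, 0.0297 and 0 FPKM in GsMTx4 libraries, and the nuclear receptor gene Nr0b2 was listed at 0 in all 9 libraries. Apart from Cyp2e1 and Asgr2, the DSS and Control values given here are near 0. Cyp2e1 reached 0.684 FPKM in Control 3, beside 0.841 FPKM in GsMTx4 3. How many reads such low values rest on is unknown.

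**Figure D5:**
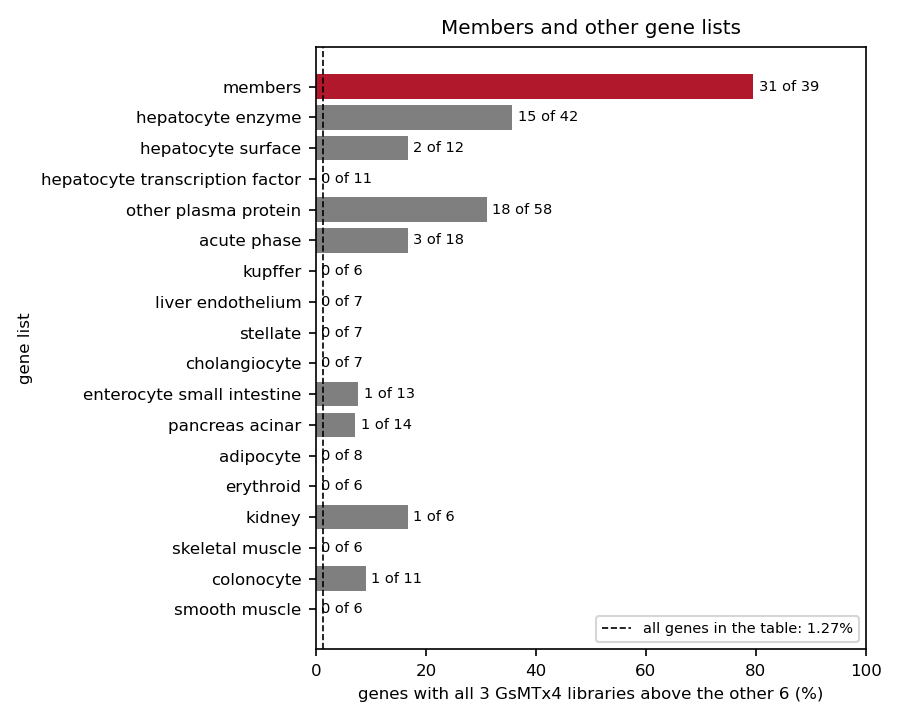
Share of genes of each list, in percent, whose 3 GsMTx4 libraries all lie above the other 6 libraries, with the count beside each bar and the share of all genes in the table, 1.27%, as a dashed line. The 39 members, chosen with these results known, reach 79.5%, hepatocyte enzymes 35.7% and further plasma proteins 31.0%. Hepatocyte surface proteins and acute phase genes reach 16.7% each. Outside the hepatocyte lists, kidney genes reach 16.7%, colonocytes 9.09%, small intestinal enterocytes 7.69% and pancreatic acini 7.14%, each through 1 gene. Hepatocyte transcription factors are at 0. So are the lists of Kupffer cells, liver endothelium, stellate cells, cholangiocytes, adipocytes, erythroid cells, skeletal muscle and smooth muscle. Nothing is read from a bar at 0 in lists this short.

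The better expressed genes of these lists, 50 of the 141, behaved in another way. Against Control, 1 of the 50 was higher in GsMTx4 and 0 lower, Hamp2, the copy of the hepcidin gene, with a log2 fold change of 1.84 ± 0.24. Hamp2 passed the filter on low values through the GsMTx4 libraries alone and so had to differ, and no p is given for it. The count against Control was 0 without GsMTx4 1, GsMTx4 2 or any 1 Control library, 2 without DSS 3 and 5 without GsMTx4 3. At an unadjusted p under 0.05 (limma), 10 of the 50 were higher and 10 lower against Control, where 2.79% of all tested genes were higher and 7.35% lower. Against DSS, 10 were higher and 10 lower in GsMTx4 at an adjusted p under 0.05, where 6.66% of all tested genes were higher and 5.62% lower. In DSS against Control 17 were higher and 11 lower, where 6.41% of all tested genes were higher and 10.7% lower. Among the enzymes, Adh1, an alcohol dehydrogenase, was at 478 ± 120 FPKM in GsMTx4 and 95.7 ± 43.3 FPKM in DSS (SD, n = 3 each), a log2 fold change of 2.41 ± 0.36 (adjusted p = 0.00541). Hpd, of tyrosine breakdown, was higher than in DSS by 0.86 ± 0.22 (adjusted p = 0.0371). Tat, the tyrosine aminotransferase, was lower by 1.60 (SE 0.33, adjusted p = 0.0173). In DSS against Control the same genes changed by -2.12 ± 0.36 (Adh1), -1.03 ± 0.22 (Hpd) and 2.92 ± 0.33 (Tat), and the gluconeogenic enzyme gene Pck1 by -1.88 ± 0.32. The 2 comparisons share the DSS libraries. Foxa2, a transcription factor gene of gut and liver, was higher in GsMTx4 than in DSS by 1.58 ± 0.18, and changed by -2.23 ± 0.18 in DSS against Control. Of the further plasma proteins, the complement genes C8g at 0.63, Serping1 at -0.91 and C4b at -1.06, and the clotting factor gene F10 at -0.96, differed between GsMTx4 and DSS. Several acute phase genes were lower in GsMTx4 than in DSS, with Lrg1 at 34.5 ± 30.9 FPKM in GsMTx4 and 229 ± 77.5 FPKM in DSS (-3.26 ± 0.76, adjusted p = 0.0262). Serpina3n at -2.72 ± 0.43, Saa3 at -2.13 ± 0.37 and Lcn2 at -1.95 ± 0.34 were likewise lower. With 1 library left out, 7 to 10 of the 50 were higher and 5 to 13 lower in GsMTx4 than in DSS, the low counts of 5 or 6 coming without GsMTx4 2, DSS 2 or DSS 3, and 10 to 19 were higher in DSS than in Control, the low counts of 10 and 11 coming without 1 Control library. Without GsMTx4 2 the calls against DSS were lost for Hpd (adjusted p = 0.126), C8g (0.0916), Serping1 (0.0802), C4b (0.0961), F10 (0.108) and Lrg1 (0.0607), and all of these were also lost without at least 2 other libraries. The call of Tat was lost without DSS 3 (adjusted p = 0.0534), and that of Hpd in DSS against Control without Control 2 (0.0525) or Control 3 (0.0627). The medians over the 50 genes were -0.12 in GsMTx4 against DSS, 0.09 in GsMTx4 against Control and 0.03 in DSS against Control, beside 0.07, -0.08 and -0.17 for all tested genes.

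Markers of other liver cells were listed as well. In none of 6 genes of Kupffer cells, the macrophages of liver, did all GsMTx4 libraries lie above the other 6, nor in any of 7 genes of liver endothelium, 7 of stellate cells or 7 of cholangiocytes, the cells of bile ducts. Since 1.27% of all genes in the table did so, lists this short would hold few such genes in any case, and nothing is read from these counts of 0. Kupffer cell genes summed to 8.68 to 11 FPKM in GsMTx4 libraries, 13.3 to 19.8 FPKM in DSS libraries and 5.88 to 12.6 FPKM in Control libraries. Genes of liver endothelium summed to 19.4 to 33.9 FPKM in GsMTx4, 32.9 to 40.5 FPKM in DSS and 26.7 to 32.3 FPKM in Control, and its marker Clec4g was at most 0.0204 FPKM in any library. Stellate cell genes summed to 28.9 to 39.3 FPKM in GsMTx4, 47.1 to 70.7 FPKM in DSS and 34.7 to 35.6 FPKM in Control. The cholangiocyte list is led by keratin and adhesion genes that colon epithelium also expresses, and it summed to 1589 to 2066 FPKM in GsMTx4, 1542 to 2167 FPKM in DSS and 1682 to 2210 FPKM in Control. Colon has cells that express many of these genes, and these sums give no measure of liver cells. Whether liver tissue or RNA carried over into the GsMTx4 samples adds to the members' values was not tested.

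Other tissues near the colon were checked in the same way. Among 13 genes of small intestinal enterocytes only Fabp1, the liver and gut fatty acid binding protein, had every GsMTx4 library above the rest. It stood at 2.48, 4.02 and 1.47 FPKM in GsMTx4 libraries, at 0, 0 and 0.105 FPKM in DSS libraries and at 0, 0.0817 and 0 FPKM in Control libraries, a log2 fold change of 1.76 ± 0.24 against DSS and 1.77 ± 0.24 against Control. Fabp1 passed the filter on low values through the GsMTx4 libraries alone and so had to differ, and no p is given for it. Of 14 genes of pancreatic acini only Cela1, an elastase gene expressed in colon, did so, with 89.1 ± 32.7 FPKM in GsMTx4, 23.4 ± 2.28 FPKM in DSS and 61.6 ± 3.65 FPKM in Control, while the pancreatic enzyme genes Cel and Cela2a were listed at 0 in all 9 libraries. Among 11 colonocyte genes Slc26a3, a chloride exchanger, did, with 142 ± 3.34 FPKM in GsMTx4, 91.3 ± 14.2 FPKM in DSS and 99.2 ± 19.7 FPKM in Control. Of 6 kidney genes 1 did, and Umod was listed at 0 in all 9 libraries. None of 8 adipocyte, 6 erythroid, 6 skeletal muscle or 6 smooth muscle genes did. The erythroid genes, which would mark blood in the tissue, summed to 12.3 to 16.7 FPKM in GsMTx4 libraries, 17.6 to 78.6 FPKM in DSS libraries and 14.2 to 37.2 FPKM in Control libraries.

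Outside the set, the 10 tested genes whose log2(FPKM + 1) was most like the mean of the standardized tested members over the 9 libraries were found by Pearson correlation, given as a description. They are Gmpr (r = 0.960), Dbp (0.960), Hamp2 (0.952), AC123951.1 (0.946), Gm22009 (0.944), Ccnc (0.944), Fabp1 (0.941), Fam118b (0.932), AC122119.2 (0.927) and Gm11263 (0.917). Dbp, a transcription factor gene with a daily rhythm in many tissues, stood at 16.0, 13.2 and 20.9 FPKM in GsMTx4 libraries, at 3.62, 2.72 and 1.68 FPKM in DSS libraries and at 2.63, 1.97 and 2.98 FPKM in Control libraries. Gmpr, the guanosine monophosphate reductase, stood at 8.46, 9.57 and 9.36 FPKM in GsMTx4 libraries, at 6.42, 6.52 and 7.32 FPKM in DSS libraries and at 6.53, 5.87 and 5.96 FPKM in Control libraries. Hamp2 stood at 3.03, 2.85 and 4.10 FPKM in GsMTx4 libraries, at 0.328, 0.141 and 0.993 FPKM in DSS libraries and at 0, 0.147 and 0.489 FPKM in Control libraries. All 10 had the GsMTx4 libraries above the other 6. Likeness of profile in 9 libraries follows from any difference between the groups and says nothing of shared control. The mean of the standardized members includes each tested member itself, unlike the 10 genes above. Among the tested members, r with that mean ran from 0.853 (Serpina1b) to 0.998 (Serpina3k), apart from Trf (0.387), Itih2 (0.302), Ttr (0.295), Hp (0.271), Itih3 (0.167) and Rbp4 (-0.302).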

How the data were processed

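The authors deposited 1 table of FPKM values for 35315 genes in 9 libraries of total RNA from colon, 3 per group, with groups and replicate numbers in the sample titles. The submitters' processing notes name cutadapt, FastQC and build GRCm38, without versions. The aligner was not given in the sources used here. Since FPKM values are not counts, no counting error is given. Symbols and positions came from GENCODE M21 (GRCm38), matched for 35196 genes, and promoter windows from RefSeq (GRCm38.p6).

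The members and gene lists were chosen with earlier results of these data known. Every member is accounted for, with all library values where a group mean reaches 1 FPKM. From the other lists the named genes are the passing genes where at most 5 passed and the 4 passing genes with the highest group mean otherwise, given for the hepatocyte lists. Other list genes, such as Cyp2e1, Mat1a, Cyp3a11, Asgr1, Asgr2 and Cyp7a1, were chosen after their values were seen. The 10 tested genes most correlated with the mean of the standardized tested members are also named.

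limma 3.58.1 in R 4.3.3 was fitted to log2(FPKM + 1) of all 9 libraries, with 1 mean per group, an empirical Bayes trend and two-sided tests. Genes at 1 FPKM or more in at least 3 libraries were tested, 14360 in all, with Benjamini-Hochberg adjustment over them and a threshold of 0.05. The fit was tested on simulated data. The simulation added changes only to genes clearly expressed in Control, so it does not cover members nearly absent there. The alternatives were other pseudocounts, filters and scalings, a fit of the compared groups only, no trend, the replicate number as a block and each library left out. Figures were drawn with matplotlib 3.10.9. Some list genes that the naming rule covers are not reported here.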

Additional observations from a re-analysis of the deposited data

How the results depend on the processing

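No named gene with a call changed direction under the alternatives run, while counts of calls moved. Members higher in GsMTx4 than in DSS numbered 24, with 10 at a pseudocount of 0.01, 2 with a filter at a mean of 5 FPKM, and 22 to 24 when 1 library was left out. Members higher in GsMTx4 than in Control numbered 19, with 1 at a pseudocount of 0.01, 1 with the filter at 5 FPKM, 12 in a fit of the compared groups only, and 11 to 19 when 1 library was left out. In DSS against Control 3 members were higher, with 6 at a pseudocount of 0.1, 6 at 0.01, 1 with the filter at 5 FPKM, 5 after quantile normalization, and 3 to 4 when 1 library was left out. The 3 lower became 1 with the filter at 5 FPKM and 2 to 3 when 1 library was left out. The filter leaves fewer members to test, and the cause of the other shifts was not tested. The 31 members with every GsMTx4 library above the rest became 31 to 32 when 1 library was left out. Removing a library cannot lower that count, so this says nothing of its stability. No pairing by replicate number was evident, though 3 libraries per group cannot exclude it. Same-numbered libraries had correlations of their deviations between -0.2335 and 0.0998, and libraries of different numbers between -0.1866 and 0.3107. With the replicate number as a block, 23 members were higher in GsMTx4 than in DSS, 14 higher than in Control, and 3 higher and 2 lower in DSS than in Control, with Alb at an adjusted p of 0.0563 (limma).

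All genes called higher and lower in GsMTx4 against DSS numbered 956 and 807. The counts were 795 and 1069 after median-of-ratios scaling, 590 and 483 without a filter, 686 and 495 with the filter at 5 FPKM, 327 and 260 in a fit of the compared groups only and 553 and 525 with the block. With 1 library left out they ran from 393 to 1209 higher, without GsMTx4 2 and GsMTx4 1, and from 323 to 787 lower. In GsMTx4 against Control 27 and 7 genes were called, with 3 and 1 at a pseudocount of 0.01, 3 and 2 with the filter at 5 FPKM, 33 and 12 without a filter, 24 and 3 after median-of-ratios scaling, 26 and 3 after quantile normalization and 2 lower at a pseudocount of 0.1. With 1 library left out they ran from 12 to 70 higher and from 1 to 13 lower. In DSS against Control 921 and 1541 were called, with 579 and 992 at the filter of 5 FPKM, 713 and 995 with the block, and 1380 and 952 after median-of-ratios scaling. With 1 library left out they ran from 382 to 1094 higher and from 581 to 2007 lower. Of the other hepatocyte genes, the 10 higher and 10 lower against DSS became 28 and 5 without a filter and 6 and 4 in a fit of the compared groups only, with 5 higher at the filter of 5 FPKM. The 1 higher against Control became 7 without a filter and 0 at pseudocounts of 0.1 and 0.01 and at the filter of 5 FPKM. Levels near 0 FPKM limit all of this, since the reads behind them are unknown.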
